A study of Drosophila melanogaster with 6 samples.

Results

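The genes described here encode the subunits of the proteasome, the large protease that breaks down proteins tagged with ubiquitin. They were the genes of the count table whose FlyBase symbol starts with Rpn, Rpt, Prosalpha or Prosbeta followed by a digit. Of the 17807 genes counted, 48 met this rule. A symbol that ends in R or T, with or without a further digit, marks a testis-type copy, and 16 of the 48 had such a symbol. The other 32 are the broadly expressed subunits, 7 of the alpha type, 7 of the beta type, 6 Rpt and 12 Rpn.

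The proteasome has a barrel-shaped core particle and a regulatory cap. The core is built of rings of alpha subunits, which gate the entrance, around rings of beta subunits, of which beta1, beta2 and beta5 carry the caspase-like, trypsin-like and chymotrypsin-like protease sites. The cap holds a ring of Rpt subunits, ATPases that unfold the substrate and push it into the core, and the Rpn subunits, which bind ubiquitin, remove it and hold the cap together. In male flies the germ line uses additional copies of several subunits, encoded by separate genes, during sperm formation.

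Poly-A RNA was sequenced from heads of male flies in 3 pum kd libraries and 3 control libraries, each from 10 pooled heads. Flies of both genotypes carried esg-Gal4 and UAS-2xYFP together with Su(H)GBE-Gal80 and tub-Gal80ts, in a background from w1118 and y1, sc*, v1, sev21 stocks. The pum kd flies had UAS-pumRNAi (TRiP.HMS01564, at attP2) and the control flies UAS-mCherryRNAi (VALIUM20, at attP2), which targets a protein that flies lack. Flies were about a week old when the sleep recordings began, were reared at 18 °C and were held at 29 °C to switch the transgenes on. The driver acts in intestinal stem cells and in the corpus allatum, an endocrine gland, and Su(H)GBE-Gal80 blocks it in enteroblasts. The paper adds that esg-Gal4 may also reach a few brain neurons, and the extent of this was not determined. Most cells of a head are therefore not expected to carry an active knockdown. Flies of a genotype were pooled before freezing, and beyond the labels no source says that the replicates came from separate cultures. The p-values therefore measure the spread between these libraries only.

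The gene counts of a library summed to between 33258537 and 39377789 in pum kd heads and between 33445243 and 34300972 in control heads. The targeted gene, pum, had 176, 192 and 228 CPM (counts relative to the library's total, scaled between libraries by TMM) in pum kd heads, against 346, 168 and 270 CPM in control heads, and the groups overlapped. All 7 head markers (elav, nSyb, brp, Syt1, ninaE, trp and repo) were detected. Markers of head fat body (Lsp2, to and fit) summed to 12.5 to 30.9 CPM in pum kd heads and 17.6 to 30.6 CPM in control heads. Those of the accessory gland and the midgut summed to at most 0.574 CPM in any library.

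The broadly expressed subunits were among the more abundant messages of the head. To compare levels between genes, counts were divided by exon length and scaled to the same total in each library (TPM). Averaged over the 6 libraries, the levels of 31 of these genes ran between 51.4 TPM (Rpn7) and 210 TPM (Prosbeta5), a 4.09-fold range. Their median level, 90.6 TPM, lay at percentile 86.8 of all tested genes, whose median was 21.9 TPM. The core genes had a median level of 115 TPM and the cap genes one of 78.9 TPM.

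Prosbeta5, which carries the chymotrypsin-like site, stood above the rest, with 203 ± 30.1 TPM in pum kd heads and 218 ± 40.9 TPM in control heads (SD, n = 3 each). Prosalpha2 followed, with 165, 116 and 149 TPM in pum kd heads, against 128, 161 and 127 TPM in control heads. Prosbeta1 (133 TPM over all libraries) and Prosalpha7 (128 TPM) were next, and their means lay inside the range of the libraries for Prosalpha2 (mean 141 TPM). The most abundant ATPases were Rpt1 (125 TPM) and Rpt6 (121 TPM). Of the Rpn genes, the ubiquitin receptors Rpn13 (103.3 TPM) and Rpn10 (102.8 TPM) led, while the large scaffold subunits Rpn1 (63.2 TPM) and Rpn2 (63.1 TPM) were near the lower end.

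**Figure D1:**
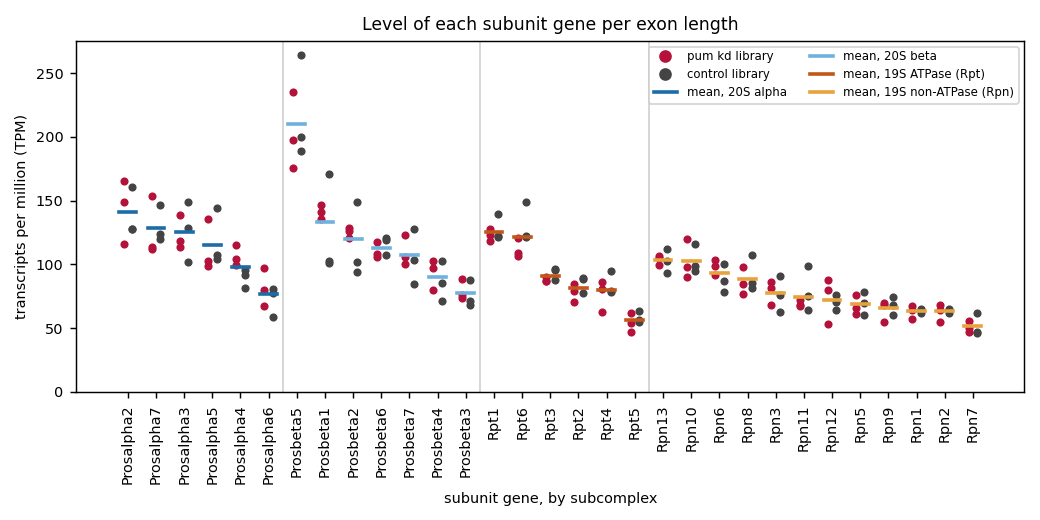
The level of each of the 31 broadly expressed subunit genes with reads is plotted in TPM, by subcomplex, with each library as a point (pum kd left of control) and the mean of the 6 libraries as a bar. Prosbeta5 is the highest, at a mean of 210 TPM, and Rpn7 the lowest, at 51.4 TPM.

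The remaining broadly expressed gene, Prosalpha1, was listed at 0 reads in every library, although an alpha1 subunit is part of every core particle. It lies on the minus strand of chromosome 2R at 7827303 to 7828678 (dm6), beside its testis-type copy Prosalpha1R at 7830413 to 7831771, which was also at 0 in every library. The authors' gene counts leave out reads that map to several places, and whether this accounts for the zeros was not tested. No level is therefore given for either gene.

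Levels of the subunit genes were then compared between pum kd and control heads. None of the 31 broadly expressed genes tested was called by edgeR's quasi-likelihood test at an adjusted p under 0.05, and the lowest adjusted p was 0.993. Of all 10696 genes tested, 0.103% were called (11 genes, each also past a 2-fold difference). None of the 31 had an unadjusted p under 0.05 either, against 4.95% of all genes, and DESeq2 likewise gave 0 calls and 0 unadjusted p-values under 0.05. The groups did not overlap for 1 of the 31, Rpn6, with pum kd above, against 5.36% of all genes in that direction. For none did pum kd lie wholly below control, against 4.95% of all genes.

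The differences in this edgeR fit were small, and its intervals bound them. The log2 fold changes of the 31 genes (pum kd minus control) ran between -0.13 and 0.34, with a median of 0.063, which is a fold of 1.04. Their standard errors were 0.15 to 0.25. The 95% interval of every 1 of the 31 excluded a 2-fold change in either direction, with the lowest bound at -0.59 and the highest at 0.81. This held for 67.5% of all genes tested. The intervals are those of this fit only. Under the alternatives, log2 fold changes of the 31 genes reached -0.25 (Rpn11, SE 0.24, control replicate 3 left out) and 0.65 (Prosbeta1, SE 0.18, control replicate 2 left out). The summed level of the 31 genes was 2143 ± 241 CPM in pum kd heads and 2032 ± 299 CPM in control heads (SD, n = 3 each), 5.46% higher in pum kd heads and within the spread of the libraries. In whole heads, fewer cells of a type and less RNA per cell cannot be told apart.

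The direction was uneven. The log2 fold change was above 0 for 25 of the 31 genes (80.6%), against 45.6% of all genes tested, whose median was -0.030. In the core 12 of 13 were above 0, with a median of 0.15, and in the cap 13 of 18, with a median of 0.044, and the difference between core and cap was not tested. These genes rise and fall together between libraries, so the counts describe a shared movement and not 31 separate differences. After a correction for gene length, described with the library pattern, 15 were above 0 and 16 below, with a median of -0.0055. Over the other settings the number above 0 ran between 15 (control replicate 1 left out) and 30 (control replicate 2 left out).

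**Figure D2:**
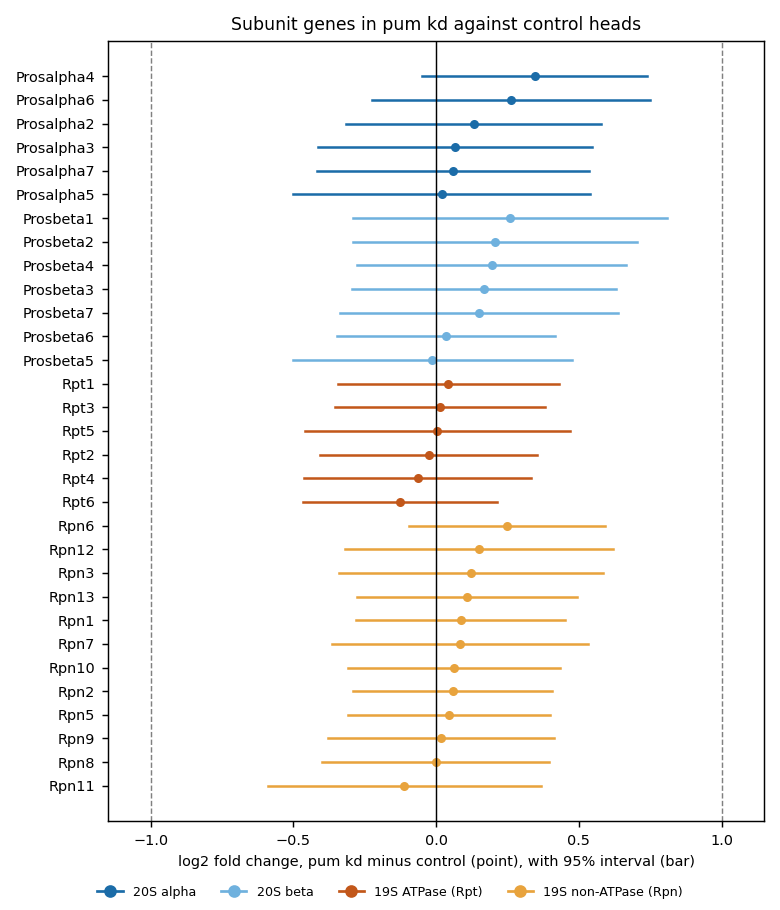
The log2 fold change of each of the 31 subunit genes (pum kd minus control) is plotted as a point with its 95% interval as a bar, by subcomplex. Points run between -0.13 (Rpt6) and 0.34 (Prosalpha4), and every interval lies inside a 2-fold change in either direction.

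The 6 alpha subunit genes with reads, which form the outer rings and the gate of the core, all had log2 fold changes above 0, with a median of 0.099. Prosalpha4 had the lowest p of all broadly expressed subunits. It had 76.7, 67.5 and 56.1 CPM in pum kd heads, against 45.3, 57.4 and 55.0 CPM in control heads. The lowest pum kd library lay just under the highest control library, so the groups overlapped. Its log2 fold change was 0.34 (SE 0.18, 95% interval -0.049 to 0.74, edgeR adjusted p = 0.993).

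Prosalpha6 had 59.0, 41.4 and 39.3 CPM in pum kd heads, against 29.8, 45.9 and 40.7 CPM in control heads. Here pum kd replicate 1 was high and control replicate 1 low, while the other libraries were mixed, and the log2 fold change was 0.26 (SE 0.22). Prosalpha2 had 86.1, 61.3 and 62.7 CPM in pum kd heads, against 55.6, 78.6 and 57.6 CPM in control heads, with a log2 fold change of 0.13 (SE 0.20). Prosalpha7 had 84.8, 63.1 and 50.7 CPM in pum kd heads, against 55.2, 75.9 and 59.4 CPM in control heads, with a log2 fold change of 0.060 (SE 0.21). In both genes pum kd replicate 1 was the highest library and control replicate 2 came next. The length correction turned their log2 fold changes to -0.0055 for Prosalpha2 and -0.068 for Prosalpha7.

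The 7 beta subunit genes had a median log2 fold change of 0.17, with 6 above 0. Prosbeta1, which carries the caspase-like site, had 65.6, 72.0 and 55.0 CPM in pum kd heads, against 40.6, 77.3 and 43.1 CPM in control heads. Control replicate 2 was the highest of all 6 libraries, while the other control libraries were the lowest. The log2 fold change was 0.26 (SE 0.25, 95% interval -0.29 to 0.81).

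Prosbeta2, which carries the trypsin-like site, was likewise highest in control replicate 2 and lowest in the other control libraries, with 75.4, 71.9 and 59.8 CPM in pum kd heads, against 45.9, 81.7 and 51.9 CPM in control heads. Its log2 fold change was 0.21 (SE 0.22). Without control replicate 2, the log2 fold changes were 0.65 for Prosbeta1 (unadjusted p = 0.00376, edgeR adjusted p = 0.183) and 0.53 for Prosbeta2 (unadjusted p = 0.0116, edgeR adjusted p = 0.274). In that fit 1431 of 11142 genes had an unadjusted p under 0.05, as did 3 of the 31 subunit genes. Prosbeta5 had 152, 115 and 103 CPM in pum kd heads, against 101, 160.0 and 112 CPM in control heads. Its log2 fold change was -0.013 (SE 0.22, 95% interval -0.50 to 0.48), and its sign turned under most alternatives.

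The 6 ATPase genes divided evenly, with 3 log2 fold changes above 0 and 3 below and a median of -0.011. Rpt6 had the log2 fold change farthest below 0 of the 31 broadly expressed subunits. It had 84.6, 88.3 and 77.5 CPM in pum kd heads, against 98.4, 91.1 and 83.9 CPM in control heads, with a log2 fold change of -0.13 (SE 0.15, 95% interval -0.47 to 0.21, edgeR adjusted p = 0.993). Its exons share 182 bases with CG1801 on the opposite strand, and 13 of the 32 broadly expressed subunits have an overlap of this kind.

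Rpt1 had 109.9, 103 and 85.5 CPM in pum kd heads, against 87.2, 112 and 90.6 CPM in control heads, with a log2 fold change of 0.043 (SE 0.17). Rpt2 had 65.0, 79.4 and 59.0 CPM in pum kd heads, against 68.5, 76.3 and 62.2 CPM in control heads, with a log2 fold change of -0.026 (SE 0.17). Rpt4 had 66.7, 52.6 and 57.6 CPM in pum kd heads, against 54.2, 73.7 and 57.0 CPM in control heads, with a log2 fold change of -0.064 (SE 0.18). In all 3 genes the pum kd and control libraries were interleaved, and each sign turned under some alternative.

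Of the 12 Rpn genes, 10 had log2 fold changes above 0, and their median was 0.073. Rpn6, a lid subunit that clamps the cap to the core, was the gene whose groups did not overlap. It had 109, 103 and 92.3 CPM in pum kd heads, against 91.9, 81.2 and 82.8 CPM in control heads. The lowest pum kd library exceeded the highest control library by less than 1 CPM. The log2 fold change was 0.25 (SE 0.16, 95% interval -0.10 to 0.59, unadjusted p = 0.140, edgeR adjusted p = 0.993).

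Rpn11, the deubiquitinase that cuts ubiquitin from the substrate, had 49.5, 46.8 and 37.5 CPM in pum kd heads, against 42.8, 63.5 and 38.3 CPM in control heads. Control replicate 2 stood above the other 5 libraries, the log2 fold change was -0.11 (SE 0.22), and it was 0.17 without that library. The ubiquitin receptor Rpn13 had 99.6, 96.1 and 81.8 CPM in pum kd heads, against 73.3, 99.7 and 84.4 CPM in control heads, with a log2 fold change of 0.11 (SE 0.17). Rpn10, the other receptor, had 78.6, 73.8 and 77.8 CPM in pum kd heads, against 66.4, 87.7 and 66.3 CPM in control heads, with a log2 fold change of 0.063 (SE 0.17). For both receptors the group ranges overlapped.

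The subunit genes varied together between libraries of the same genotype. Their summed level was 2345, 2208 and 1876 CPM in pum kd heads, against 1834, 2376 and 1887 CPM in control heads. Pum kd replicates 1 and 2 and control replicate 2 were high, and the other 3 libraries were low. Pum kd replicate 1 held the highest value of the 6 libraries for 12 of the 31 genes, pum kd replicate 2 for 7 and control replicate 2 for 11. At the other end, control replicate 1 held the lowest value for 12 genes, pum kd replicate 3 for 11 and control replicate 3 for 6.

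The core varied more than the cap between libraries. Its 13 genes summed to 979, 830 and 692 CPM in pum kd heads, against 640, 956 and 693 CPM in control heads. Pum kd replicate 1 was the highest library and control replicate 1 the lowest, each for 8 of the 13 genes. The mean was 834 ± 144 CPM in pum kd heads and 763 ± 169 CPM in control heads (SD, n = 3 each). The 18 cap genes summed to 1365, 1378 and 1184 CPM in pum kd heads, against 1193, 1419 and 1194 CPM in control heads. The ratio of summed core to summed cap CPM was 0.717, 0.603 and 0.585 in pum kd heads, against 0.537, 0.674 and 0.580 in control heads, and the groups overlapped.

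**Figure D3:**
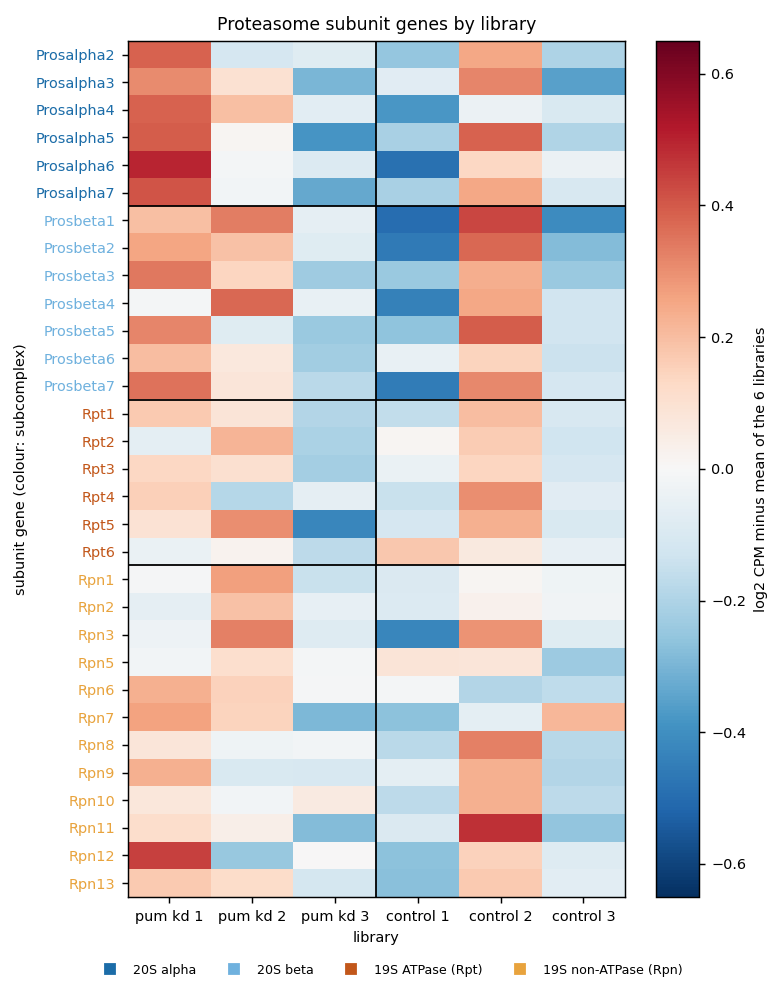
Colour shows the log2 CPM of each of the 31 subunit genes in each library, minus the gene's mean over the 6 libraries, with pum kd libraries left of control libraries and genes by subcomplex. Pum kd replicate 1 and control replicate 2 are high across most rows (median deviations of 0.20 and 0.23), and control replicate 1 is low (median -0.17).

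Gene length moved with this pattern. The exons of the core genes had a median length of 973 bases and those of the cap genes 1589 bases, against 2003.5 bases over all tested genes. A smooth curve of the log2 deviation from each gene's mean against exon length, fitted over all genes in each library, read at the lengths of the core genes 0.24, -0.0017 and -0.051 in pum kd heads, against -0.27, 0.13 and -0.052 in control heads. These readings were highest in pum kd replicate 1 and lowest in control replicate 1, as were the core genes themselves, whose median deviations in those libraries were 0.34 and -0.26. Across the 31 genes, Spearman's rho between log2 fold change and exon length was -0.30, and across 10642 genes with a known length it was -0.27. Both are descriptions over genes that share the same 6 libraries. The part of length in the difference of the core genes was not tested beyond the correction, which left a median of -0.032 over the alpha genes and 0.058 over the beta genes.

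**Figure D4:**
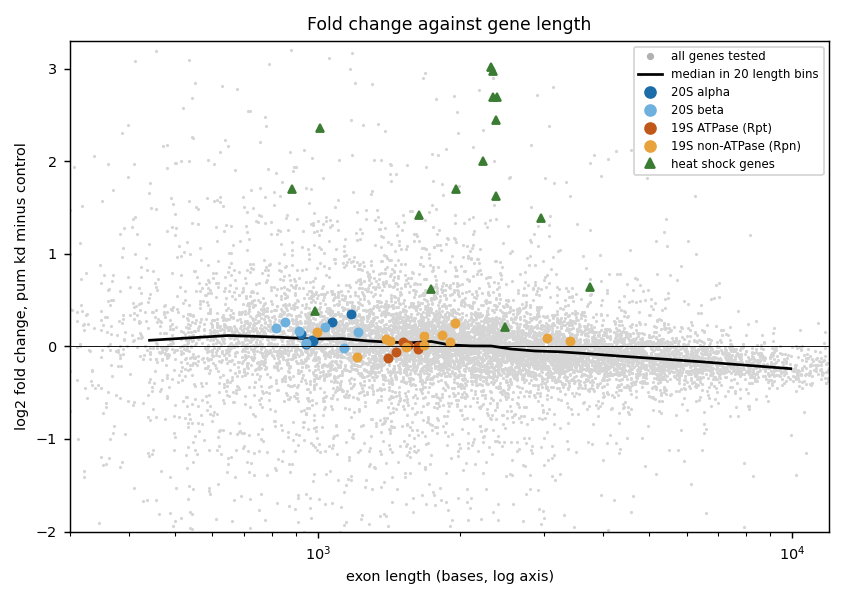
The log2 fold change (pum kd minus control) is plotted against exon length on a log axis for all tested genes in grey, with the subunits of each subcomplex as coloured circles, heat shock genes as triangles and the median over all genes in bins of length as a line. The core genes, at 815 to 1215 bases, are shorter than the median of 2003.5 bases over all tested genes.

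The authors' normalized values were given back in full by ComBat-seq when pum kd replicate 1 was grouped with control replicates 1 and 2, apart from the other 3. Within that division, the median log2 difference of the 31 genes was 0.15 for pum kd replicate 1 minus control replicates 1 and 2. It was 0.089 for pum kd replicates 2 and 3 minus control replicate 3. With the division as a term in the fit, the median over the 31 genes was 0.11 and 0 of them were called.

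The testis-type copies were close to absent from the heads. Of the 16 genes, 3 had 0 reads in every library (Prosalpha1R, Prosbeta4R1 and Prosbeta5R2), and 70 of the 96 values were 0. The other 26 values were between 1 and 31 reads. The highest mean level of a testis-type copy, that of Rpn13R, was 0.535 TPM, against 51.4 TPM for the lowest broadly expressed subunit with reads. The 16 genes together held 54, 126 and 70 reads in pum kd heads, against 27, 64 and 51 reads in control heads. Their CPM came to between 0.0445% and 0.152% of that of the broadly expressed subunits.

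Reads were spread over few genes in each library. In pum kd heads 4, 9 and 4 of the 16 genes had reads, against 3, 4 and 2 in control heads, with pum kd replicate 2 highest. That library also held all reads of the testis markers dj (27 reads) and ocn (44 reads). Mst87F had 6 and 10 reads, in pum kd replicates 1 and 2. Other testis markers went another way, as can had 24 and 22 reads in control replicates 1 and 3 and none elsewhere. The marker fzo had 66, 76 and 74 reads in pum kd heads, against 0, 62 and 92 reads in control heads. The 7 testis markers other than bol summed to 2.06 to 4.19 CPM in pum kd heads and 0.725 to 3.35 CPM in control heads, with Mst84Da and aly at 0 in every library. The last marker, bol, was at 129 to 193 CPM in pum kd heads and 116 to 285 CPM in control heads. The part of germ-line RNA in the reads of the testis-type copies was not tested.

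Prosalpha3T had 31 reads in pum kd replicate 3 and 0 in the other libraries. Prosalpha4T2 had 22 reads and Prosalpha4T1 12 reads, all in pum kd replicate 2. Prosalpha6T had 14 reads in pum kd replicate 2 and 1 read in control replicate 1. In each of these alpha copies, then, nearly all reads came from a single library.

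The same held for copies of other subunits. Rpn12R had 16 reads in pum kd replicate 1 and 0 elsewhere, and Prosbeta2R1 had 22 reads in control replicate 2 and 0 elsewhere. Prosbeta4R2, Rpt4R and Prosbeta5R1 had at most 9 reads in any library. None of these 9 genes passed the filter on low counts.

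The filter was passed by 4 testis-type copies, and none was called. Rpt6R had 0, 24 and 15 reads in pum kd heads, against 0, 14 and 29 reads in control heads. Rpn13R had 2, 14 and 11 reads in pum kd heads, against 0, 14 and 22 reads in control heads. Prosbeta2R2 had 15, 0 and 0 reads in pum kd heads, against 24, 14 and 0 reads in control heads. In all 3 genes the groups overlapped, and standard errors between 1.72 and 2.13 on the log2 scale leave a difference of either sign possible.

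The fourth, Rpt3R, a copy of the ATPase Rpt3, had 21, 22 and 13 reads in pum kd heads and 0 reads in each control library. The groups did not overlap. Against a floor of 3 counts in each control library, the mean CPM of the pum kd heads was 5.97-fold higher. This is not a lower bound, because zeros were common among genes of this level, as given below. The gene passed the filter only through the pum kd libraries, where it was high, so its p-values are given as a description only. Its unadjusted p was 0.0146 and its edgeR adjusted p 0.707, and DESeq2 gave an adjusted p of 0.109.

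The call for Rpt3R rested on the processing. With ComBat-seq by the division above and then DESeq2, the adjusted p was 6.01e-07, which made it the only subunit gene called under any setting. After ComBat-seq the adjusted p was 0.0650 with edgeR, and it was 0.0542 with limma on the authors' normalized values. The authors' normalized values for this gene were 59.1, 70.3 and 49.1 in pum kd heads and 0 in each control library, above the raw counts in every pum kd library. Rpt3R lies on the minus strand of chromosome 3R at 9754735 to 9756510 (dm6), and 20 bases of its exons overlap Alg12 on the opposite strand.

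Zeros were common among genes of this level. Of the 1463 genes with a mean of 5 to 20 reads per library, 45.5% of the values were 0, where Poisson counting would give 0.106%, and the median value above 0 was 16 reads. Such genes thus varied between libraries by far more than counting error, and a 0 bounds their level less tightly than the floor states. Of the 13234 genes with any reads, 28 had 0 reads in every control library and at least 10 in every pum kd library, as Rpt3R did, and 7 showed the reverse.

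**Figure D5:**
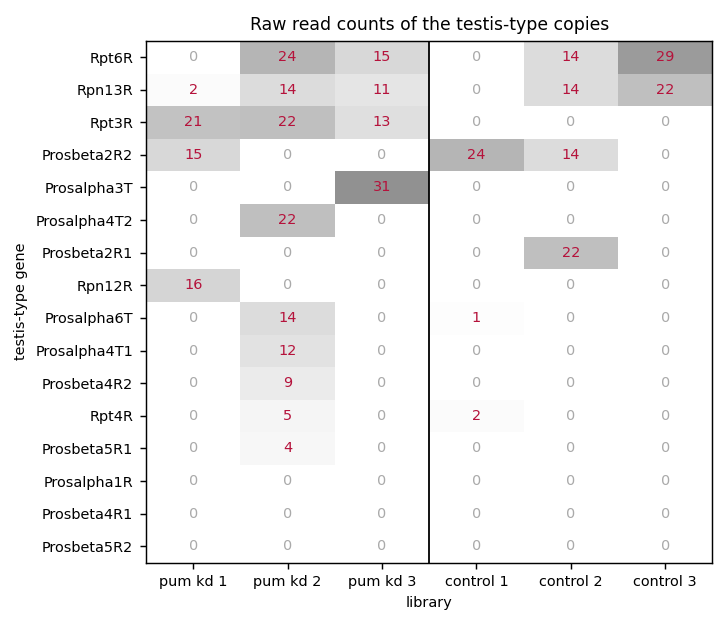
Raw read counts of the 16 testis-type copies are shown in each library, with pum kd libraries left of control libraries. Most cells are 0, many rows hold a single value above 0, and Rpt3R has reads in all 3 pum kd libraries (21, 22 and 13) and none in control.

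Genes that work with the proteasome were examined as a list of 28 symbols for assembly factors, shuttles, deubiquitinases, ubiquitin supply and the regulator cnc. Of these, 26 were matched and 25 were tested, and Uch-L5R was at 0 in every library. None was called by edgeR and none had an unadjusted p under 0.05, against the 0.103% and 4.95% of all genes. The log2 fold change was above 0 for 19 of the 25 (76%, against 45.6% of all genes tested), with a median of 0.14. The 95% interval excluded a 2-fold change in either direction for 24 of the 25 (96%, against 67.5% of all genes tested). The 25 genes share the same libraries, so these counts are descriptions. The groups did not overlap for Pngl, Ube3a (a ubiquitin ligase) and TER94 (an ATPase that extracts ubiquitinated proteins), with pum kd above in all 3 (12% of the 25, against 5.36% of all genes).

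Pngl, the fly relative of the enzyme that strips sugars from misfolded glycoproteins, had 47.6, 51.2 and 46.6 CPM in pum kd heads, against 35.2, 41.6 and 40.2 CPM in control heads. Its log2 fold change was 0.31 (SE 0.16, unadjusted p = 0.0731, edgeR adjusted p = 0.993). Its exons overlap Strica, a caspase gene on the opposite strand, which had a mean of 0.398 CPM in pum kd heads and 17.1 CPM in control heads (log2 fold change -5.42, edgeR adjusted p = 0.000361). The libraries were stranded by the paper's account. The strand setting of the counting is not given in the sources used here, and the part of the overlap in the values of Pngl was not tested.

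The F-box protein gene ntc, whose product binds the proteasome regulator PI31, had 11.6, 10.5 and 13.1 CPM in pum kd heads, against 6.40, 11.6 and 7.80 CPM in control heads. The groups overlapped, with a log2 fold change of 0.45 (SE 0.27), and 639 bases of its exons are shared with CG32264 on the same strand. Ubi-p63E, which encodes a chain of ubiquitin units, had 550.3, 653 and 442 CPM in pum kd heads, against 474, 443 and 463 CPM in control heads, with a log2 fold change of 0.25 (SE 0.19). Its spread was wider among the pum kd libraries, which reached both ends of the range.

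Of the 6 genes of the list with log2 fold changes below 0, those with the lowest p were a shuttle, a deubiquitinase and a cofactor of TER94. Rad23, the shuttle that carries ubiquitinated proteins to the cap, had 93.4, 80.0 and 98.9 CPM in pum kd heads, against 94.5, 110.5 and 94.2 CPM in control heads (log2 fold change -0.14). Usp14, a deubiquitinase of the cap, had 43.3, 50.5 and 39.9 CPM in pum kd heads, against 48.7, 47.7 and 48.3 CPM in control heads (log2 fold change -0.11). Npl4, the cofactor, had 109.6, 102 and 100.6 CPM in pum kd heads, against 113, 119 and 93.1 CPM in control heads (log2 fold change -0.061). For all 3 the group ranges overlapped.

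The transcription factor cnc drives proteasome subunit genes when proteasome activity is low, as its relative does in mammals. It had 209.6, 249 and 244 CPM in pum kd heads, against 277, 196 and 243 CPM in control heads, with a log2 fold change of -0.028 (SE 0.19). Counts per gene cannot show changes in its protein. The ubiquitin-binding protease gene rngo had 44.8, 39.2 and 41.0 CPM in pum kd heads, against 41.4, 31.6 and 37.3 CPM in control heads, with a log2 fold change of 0.18 (SE 0.17).

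Heat shock genes, a group of protein quality control that earlier work on these data had already shown to be higher in pum kd heads, gave a contrast in the same libraries. Of 19 genes with symbols Hsp and a digit, 16 were tested, and 6 were called higher by edgeR at an adjusted p under 0.05, against 0.103% of all genes called. Their summed level was 7333, 5267 and 5457 CPM in pum kd heads, against 2699, 2719 and 2550 CPM in control heads, 2.27-fold higher. Most of it came from Hsp83, with a mean of 4153 CPM in pum kd heads and 1589 CPM in control heads. The means of the sum were 6019 and 2656 CPM. The groups did not overlap in this sum, while in the sum of the subunit genes control replicate 2 was the highest of the 6. The difference between the lists was not tested.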

How the data were processed

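The authors checked reads with FastQC 0.12.1, trimmed them with Trimmomatic 0.39 and aligned them to dm6 and counted genes with STAR 2.7.11b. They deposited raw counts per gene. A second deposited table holds a normalized signal (ComBat-seq output scaled by size factors from DESeq2) beside fold changes and p-values that were not used here. The libraries were stranded, but the annotation and strand setting of the counting are not given in the sources used here. The 4 rows that name no gene (11.5% to 14.2% of counts) were left out.

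The test was the quasi-likelihood F test of edgeR 4.0.16 (R 4.3.3) after TMM and filterByExpr, with p-values adjusted over the 10696 genes by Benjamini-Hochberg. The study's own route, ComBat-seq and then DESeq2, rests on batches its text does not name, and was an alternative. TPM used the exon lengths of 17710 genes matched to the Ensembl annotation of dm6. The script was tested on simulated data.

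The members and lists were chosen with earlier results of these data known. Values in every library are given for the 5 broadly expressed subunits with the lowest p in each direction, the catalytic beta subunits, the pair most abundant per length in each subcomplex, Prosalpha1 with its copy, testis-type copies that passed the filter or had at least 10 counts in a library, the 3 genes of the pathway list with the lowest p in each direction, cnc and rngo. Alternatives were DESeq2 1.42.0, RLE size factors, no filter, a replicate block, the authors' batches as a term, a correction for gene length (loess, span 0.3) and each library left out. Added after seeing the data were ComBat-seq (sva 3.50.0) followed by edgeR or DESeq2, limma 3.58.1 on the normalized values with a pseudocount of 1, and a fit without control replicate 2 and pum kd replicate 1. Promoter motifs and protein identity were not analysed here.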

Additional observations from a re-analysis of the deposited data

How the results depend on the processing

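No broadly expressed subunit and no gene of the pathway list was called under any alternative. Of the pathway list, Pngl, ntc, Ube3a and Ubi-p63E had an unadjusted p under 0.05 under some alternative. The 1 member called was Rpt3R, under ComBat-seq followed by DESeq2. The median log2 fold change of the broadly expressed subunits was 0.063. It was -0.0055 with the gene length correction, 0.078 with DESeq2 and with RLE, and 0.11 without the filter and with the batch term. ComBat-seq gave 0.15 with edgeR and 0.13 with DESeq2, and limma gave 0.12. Without control replicate 2 and pum kd replicate 1 the median was 0.16. With a library left out it lay between -0.0042 (control replicate 1 left out) and 0.24 (control replicate 2 left out). Without control replicate 2, 3 of the 31 had an unadjusted p under 0.05, as did 1431 of 11142 genes. Correlations of same-numbered libraries were -0.087, -0.021 and 0.014, and all pairs of a pum kd and a control library lay between -0.087 and 0.063. They cannot decide whether replicate numbers pair the samples, because pairs on the same side of the division above did not stand apart. Replicates 1 and 3, which share a side, gave -0.087 and 0.014, and replicates 2, which do not, gave -0.021. With the replicate block the median was 0.072, 0 members were called and 14 genes were called in all, against 11 without it. All genes called numbered 92 with DESeq2, 82 without the filter, 31 with the length correction, 35, 404 and 49 with ComBat-seq and edgeR, ComBat-seq and DESeq2, and limma, 44 without control replicate 2 and pum kd replicate 1, and from 1 with control replicate 3 left out up to 32 with control replicate 2 left out. An edgeR fit on reads worked back from the normalized values was planned and not run.

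The median of the testis-type copies tested was -0.37. It was 3.49 without the filter, 3.81 with ComBat-seq and edgeR, 3.49 with ComBat-seq and DESeq2, 2.19 with limma, and -0.79 to 0.55 with a library left out. It rests on few reads and, in part, on which copies pass the filter.

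The log2 fold changes of some of the 27 named genes changed sign. Prosbeta5 gave 0.0026 with DESeq2 and with RLE, 0.034 without the filter, 0.090 with the batch term, 0.083, 0.061 and 0.053 with ComBat-seq and edgeR, ComBat-seq and DESeq2, and limma, and 0.068 without control replicate 2 and pum kd replicate 1. In the same order of these last 4 settings, Rpn11 gave 0.12, 0.098, 0.080 and 0.095 (0.018 with the batch term) and Npl4 gave 0.096, 0.071, 0.071 and 0.011 (0.018 with the batch term). Rpt4 gave 0.0061 with the batch term, 0.023 with ComBat-seq and edgeR, 0.00033 with limma and 0.021 without those libraries. Rpt2 gave 0.026 without the filter, 0.028 with ComBat-seq and edgeR, 0.0033 with ComBat-seq and DESeq2 and 0.12 without those libraries. For cnc the values were 0.025 without the filter, 0.16 with the length correction and 0.0057 with ComBat-seq and edgeR. The length correction gave -0.0055 for Prosalpha2, -0.068 for Prosalpha7 and -0.013 for Rpt1. Rpn13R gave 0.21 with the replicate block and 0.087 without those libraries, and Rpt6R gave 0.33 without those libraries. The cause was not tested.

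With each library left out, the log2 fold changes ran from -0.12 to 0.084 for Rpt2, -0.00064 to 0.34 for Prosalpha2, -0.11 to 0.24 for Prosalpha7, -0.96 to 0.81 for Rpt6R, -0.12 to 0.094 for cnc, -0.15 to 0.11 for Rpt4, -0.15 to 0.24 for Prosbeta5, -0.024 to 0.19 for Rpt1, -0.0045 to 0.24 for Rpn10, -0.25 to 0.17 for Rpn11, -0.16 to 0.044 for Npl4 and -1.07 to 0.30 for Rpn13R. The standard errors of 0.15 to 0.25, with 3 libraries a group, limit what size of difference these data can show.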
